A study of Homo sapiens with 8 samples.

Results

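The replication-dependent histone genes were taken as the rows whose symbol starts with HIST1H, HIST2H, HIST3H or HIST4H, which gave 85 rows, less 10 whose symbol marks a pseudogene. The remaining 75 genes, of 56832 gene rows in all, comprised 6 genes for the linker histone H1 and, for the core histones, 17 for H2A, 23 for H2B, 14 for H3 and 15 for H4. By symbol, 55 lie in the HIST1 cluster on chromosome 6, 15 in HIST2 and 4 in HIST3 on chromosome 1, and 1 is HIST4H4 on chromosome 12. GENCODE 29 annotates 70 of them as protein coding, and lists HIST2H2BA, HIST2H2BB, HIST2H2BC, HIST2H2BD and HIST3H2BA under pseudogene types although their symbols passed the rule.

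H2A, H2B, H3 and H4 form the protein core around which DNA is wrapped into a nucleosome, and H1 binds the DNA between nucleosomes. Cells make these proteins mainly in S phase, when newly copied DNA has to be packaged. Their mRNAs are unusual in having no introns and no poly(A) tail: the transcript ends just after a stem-loop, which is bound by the protein SLBP and cut with the help of the U7 small nuclear ribonucleoprotein, and NPAT drives transcription of the clusters. Libraries from total RNA, as here, can hold such transcripts, which selection on poly(A) would remove.

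The RNA came from Nthy-ORI cells, an epithelial line derived from normal human thyroid. After 24 h in hormone-depleted medium without phenol red, the cells received 10 nM T3, the active thyroid hormone, or NaOH as vehicle, for 24 h or 6 h. The 4 groups were T3 at 24 h, vehicle at 24 h, T3 at 6 h and vehicle at 6 h, with 2 libraries each. The labels do not state separate cultures for the libraries of a group, and the spread that p-values here measure may therefore be technical. Since all cells were starved of hormone first, neither vehicle group is an untreated culture.

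Gene rows held 2517983 to 8201606 counts per library, and 47.6% to 67.4% of the reads in each table had not aligned uniquely. The libraries of the different times stood far apart, with Spearman correlations over genes of 0.73 to 0.82 between the times and 0.97 to 0.99 within a time. Nothing in the labels says whether the times were prepared or sequenced together, so time and any such difference cannot be told apart. KLF9, a transcription factor gene induced by thyroid hormone, went with the labels at 6 h, with 13.3 and 14.02 counts per 1000000 counted reads (CPM, scaled by the TMM method) in T3 libraries against 0.901 and 0.815 in vehicle libraries. At 24 h it went against them, with 2.78 and 3.34 CPM in the libraries labelled T3 against 20.7 and 31.3 CPM in those labelled vehicle. HR, a corepressor gene that is also a known hormone target, had 0.309 and 0.115 CPM in the libraries labelled T3 at 24 h against 4.28 and 3.87 CPM in those labelled vehicle. For that reason all directions between the 24 h groups refer to the libraries as labelled. Among thyroid markers PAX8, KRT8 and KRT18 were present, while TG and TSHR, markers of differentiated follicular cells, stayed below 1 CPM in every library. COL1A1, a fibroblast collagen gene, stood at 606 to 1221 CPM at 24 h and at 97.7 to 189 CPM at 6 h, and all 7 fibroblast markers had counts. Their summed level was 627 to 723 CPM in the libraries labelled T3 and 1145 to 1249 CPM in those labelled vehicle at 24 h, and 114 to 120 CPM in T3 libraries and 214 CPM in vehicle libraries at 6 h, and its part in the results was not tested. The summed level of the 14 thyroid follicular markers was 553 to 574 CPM in the libraries labelled T3 and 665 to 721 CPM in those labelled vehicle at 24 h. At 6 h it was 1147 to 1178 CPM in T3 libraries and 1103 to 1272 CPM in vehicle libraries. Of the 7 tested, 4 were lower and 2 higher at 24 h in each comparison of the times. Of all genes tested, 70.4% were called between the times in T3 libraries and 64.5% in vehicle libraries. The summed level of this list was thus lower at 24 h, as that of the histone genes was, and its part was not tested either. The defining markers CDH5 (endothelium), CD3E (T cells) and CALCA (C cells) had no count, and the summed lists of these types stayed at or below 2.85 CPM.

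The sequence that makes these mRNAs a class is the stem-loop after the stop codon, and it is shown here for a member of each version found. It was searched for in the GENCODE 29 transcripts, many of which end at the stop codon and so cannot hold it. The capitals mark the stem, whose arms pair with each other, and the lower-case letters mark the loop, written 5′ to 3′ as DNA. The version of HIST1H2AC was found in 18 genes, of the H2A, H2B and H3 classes, that of HIST1H2BC has another last loop base, and the stem of HIST1H4E and HIST1H4I was found in H4 genes alone among the 31 genes with a match.
HIST1H2AC: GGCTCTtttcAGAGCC
HIST1H2BC: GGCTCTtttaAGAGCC
HIST1H4E: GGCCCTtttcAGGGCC
HIST1H4I: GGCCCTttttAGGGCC

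Promoters were chosen for 5 genes that the results below turn on. HIST1H1D and HIST1H4F are neighbours that were higher at 24 h than at 6 h. HIST1H4F passed the filter on low counts through other groups and had to differ. HIST1H1E and HIST1H4D belong to the same classes and were lower at 24 h as counted. With each library's trend with GC content and exon length removed, HIST1H1E and HIST1H4D were called higher in vehicle libraries. HIST1H2BK is the most abundant H2B gene per length as a mean over all libraries. The promoters of these 5 genes are shown. Each is the 250 bases before the RefSeq start (GRCh38.p14), written 5′ to 3′ on the gene's strand: HIST1H1D chr6:26234988-26235237 minus, HIST1H4F chr6:26240143-26240392 plus, HIST1H1E chr6:26156079-26156328 plus, HIST1H4D chr6:26189113-26189362 minus, and HIST1H2BK chr6:27146859-27147108 minus. Capitals mark matches on either strand to ATTTGCAT (the octamer element of H2A and H2B promoters), CCAAT (the CCAAT box), TATAAA (the TATA box) and AAACACAAA (an element described in H1 promoters).
HIST1H1D: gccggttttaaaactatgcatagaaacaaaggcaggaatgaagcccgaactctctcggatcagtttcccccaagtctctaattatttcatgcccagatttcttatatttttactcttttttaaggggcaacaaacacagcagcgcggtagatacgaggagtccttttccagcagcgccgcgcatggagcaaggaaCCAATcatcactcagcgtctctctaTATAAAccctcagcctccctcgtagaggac
HIST1H4F: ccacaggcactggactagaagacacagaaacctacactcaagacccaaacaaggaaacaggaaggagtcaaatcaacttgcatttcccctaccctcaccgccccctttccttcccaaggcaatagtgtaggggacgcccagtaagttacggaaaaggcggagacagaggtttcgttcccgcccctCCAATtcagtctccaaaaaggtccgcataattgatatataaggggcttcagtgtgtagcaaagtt
HIST1H1E: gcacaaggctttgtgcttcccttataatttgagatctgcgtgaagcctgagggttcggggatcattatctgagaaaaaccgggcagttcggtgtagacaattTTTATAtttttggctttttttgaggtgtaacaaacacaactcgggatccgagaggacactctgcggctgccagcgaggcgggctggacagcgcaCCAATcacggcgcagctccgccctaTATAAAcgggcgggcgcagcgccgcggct
HIST1H4D: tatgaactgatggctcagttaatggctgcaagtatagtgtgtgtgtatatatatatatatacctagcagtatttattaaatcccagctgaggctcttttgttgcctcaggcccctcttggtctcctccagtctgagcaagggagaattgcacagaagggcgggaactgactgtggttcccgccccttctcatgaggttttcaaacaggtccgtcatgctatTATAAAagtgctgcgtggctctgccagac
HIST1H2BK: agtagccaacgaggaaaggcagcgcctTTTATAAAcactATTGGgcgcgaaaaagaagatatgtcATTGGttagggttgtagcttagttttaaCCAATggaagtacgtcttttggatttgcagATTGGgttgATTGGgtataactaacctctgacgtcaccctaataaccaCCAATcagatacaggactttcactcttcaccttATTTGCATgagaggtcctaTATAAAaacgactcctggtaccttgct

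RefSeq promoters were matched for 60 of the 75 genes, and the motifs divided the classes. ATTTGCAT stood in 11 of 16 H2A and 9 of 13 H2B promoters, in 1 of 12 H3 promoters, and in no H1 or H4 promoter, against 1.63% of all 35116 promoters. The H3 match is that of HIST1H3D, whose stretch is the same bases as that of HIST1H2AD, chr6:26199294-26199543 minus. This stretch is thus counted in both classes for every motif, and no separate H3 promoter held ATTTGCAT. CCAAT stood in all 47 H1, H2A, H2B and H3 promoters matched and in 3 of 13 H4 promoters, against 32.0% of all promoters. TATAAA stood in 40 of the 60, against 10.7% of all. AAACACAAA was found in 3 of 6 H1 promoters, those of HIST1H1B, HIST1H1C and HIST1H1T, and in no core histone promoter, against 0.530% of all promoters. Exact matches to the full string alone were counted. Its shorter part AAACACA stands unmarked in the printed promoters of HIST1H1D and HIST1H1E, so they are not shown to lack the element. HIST1H4F has a CCAAT match at position -65 from the start and no TATAAA, whereas HIST1H4D has TATAAA at -29 and no CCAAT. These matches are descriptions of letters, not of bound sites.

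Of the 75 genes, 8 had no count in any library and 12 had 1 to 40 counts in all, which left 55 that passed the filter on low counts and were tested: 5 H1, 12 H2A, 17 H2B, 9 H3 and 12 H4 genes. A library's limit for a gene with no count, taken as 3 counts, lay between 0.366 and 1.19 CPM. The genes with no count include HIST1H1T and HIST1H2AA, which are known from testis, and HIST1H2BA, the testis H2B gene, had 1 count. The near-identical copies HIST2H2AA3 and HIST2H2AA4, HIST2H3A and HIST2H3C, and HIST2H4A and HIST2H4B had 0 to 10 counts each, and at most 2.91% of their 50-base stretches occurred in no other gene's transcript. Counts of such copies are therefore uncertain individually. The same holds for HIST1H4K, with 0% of such stretches its own, HIST1H2AJ with 16.3%, HIST1H4J with 18.8%, HIST2H3D with 19.6%, HIST1H2BK with 25.9% and HIST1H2AI with 37.7%. HIST1H2AK lies wholly inside HIST1H2BN on the other strand, and since the strand setting of the counting is not given, its reads cannot be told from those of HIST1H2BN. All 50-base stretches of the H1 genes were their own. HIST1H1A, HIST1H2BB, HIST1H3C, HIST1H3E and HIST1H4F had fewer than 10 counts in at least 1 of the 6 h groups and passed the filter through other groups, and HIST1H4I did so at 24 h, so they had to differ between groups.

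Levels of single genes were compared per kilobase of annotated exon. On that scale, as means over the 8 libraries, HIST1H1C stood highest at 951 CPM per kb, followed by HIST1H3B at 934, HIST1H1E at 817, HIST1H2BK at 541 and HIST1H4C at 496 CPM per kb. The genes annotated as ending at the stop codon have short exon lengths, so these values depend on the annotation. The means pool groups whose order differed: HIST1H1C was highest in the libraries labelled T3 at 24 h, at 523 CPM per kb, HIST1H1E in those labelled vehicle at 24 h, at 715, and HIST1H3B at 6 h, at 1418 in T3 libraries and 1751 in vehicle libraries.

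All classes together, the 75 genes took 0.292% and 0.295% of the counted reads in the libraries labelled T3 at 24 h, 0.533% and 0.391% in those labelled vehicle at 24 h, 0.830% and 0.814% in T3 libraries at 6 h, and 1.03% and 0.968% in vehicle libraries at 6 h. The 4 groups did not overlap, and the exact 95% binomial intervals of the libraries lay within 0.288% to 0.299%, 0.386% to 0.540%, 0.806% to 0.840% and 0.955% to 1.04%, in that order of groups. The summed level was 2758 ± 40.5 CPM in the libraries labelled T3 at 24 h against 4337 ± 581 CPM in those labelled vehicle at 24 h (SD, n = 2 each), a log2 ratio of -0.65, and 8996 ± 157 CPM in T3 libraries against 10261 ± 469 CPM in vehicle libraries at 6 h, a log2 ratio of -0.19. The sums were not tested. In bulk RNA, fewer cells in S phase and less histone mRNA per cell cannot be told apart. The sums also carry each library's trend with GC content and exon length. With that trend removed, the median log2 fold change of the 55 tested genes at 24 h against 6 h was -0.35 in T3 libraries and 0.01 in vehicle libraries. For T3 against vehicle it was -0.44 at 24 h as labelled and -0.0083 at 6 h.

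**Figure D1:**
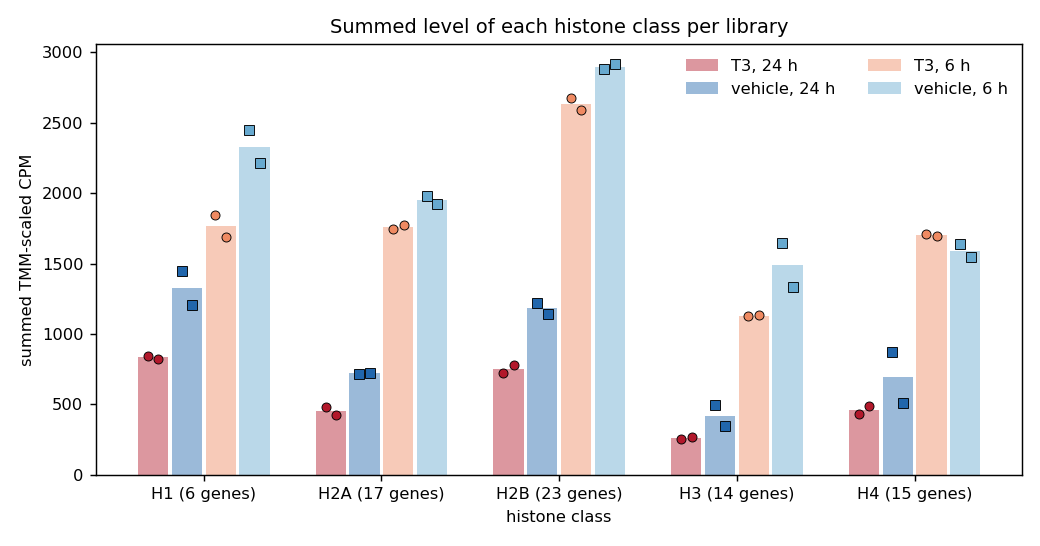
Summed TMM-scaled CPM of all genes of each histone class (vertical axis), with a bar for the mean and a point for each of the 2 libraries of a group; from left to right T3 at 24 h, vehicle at 24 h, T3 at 6 h and vehicle at 6 h, as labelled. As counted, both 24 h groups lie below both 6 h groups in every class, and H4 is the class whose T3 libraries at 6 h, at 1713 and 1698 CPM, lie above the vehicle libraries.

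By class, the H1 sum was 833 ± 13.4 CPM in the libraries labelled T3 at 24 h and 1324 ± 170 CPM in those labelled vehicle, a log2 ratio of -0.67. In the libraries labelled T3 against those labelled vehicle, the H2A sum was 453 ± 36.7 against 720 ± 4.42 CPM (log2 ratio -0.67), the H2B sum 750.0 ± 42.3 against 1182 ± 52.7 CPM (-0.66), the H3 sum 260.4 ± 9.77 against 420.1 ± 109 CPM (-0.69) and the H4 sum 462 ± 38.6 against 691 ± 254 CPM (-0.58). The larger of the SDs of log2 sums between replicates was 0.54 for H4 and 0.38 for H3, wider than the range of these ratios. At 6 h the log2 ratio of T3 to vehicle was -0.40 for H1 and -0.40 for H3, -0.15 for H2A, -0.14 for H2B and 0.10 for H4, and the last was 0.01 when libraries were scaled by their total alone. The H1 sum at 6 h was 1766 ± 110.0 CPM in T3 libraries against 2330 ± 163 CPM in vehicle libraries, and the H4 sum was 1705 ± 10.5 against 1592 ± 65.6 CPM.

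The composition of the histone counts, as counted, shifted with time. H1 genes took 30.9% and 29.6% of all histone counts in the libraries labelled T3 at 24 h and 30.4% and 30.7% in those labelled vehicle at 24 h, against 20.2% and 19.0% in T3 libraries and 23.1% and 22.3% in vehicle libraries at 6 h. H3 genes took 9.29% and 9.59% (T3, 24 h), 10.5% and 8.74% (vehicle, 24 h), 12.4% and 12.8% (T3, 6 h), and 15.6% and 13.4% (vehicle, 6 h). The exact 95% binomial intervals, which cover counting error only, together reached from 28.98% to 31.6% for H1 at 24 h and from 18.6% to 23.5% at 6 h, and for H3 from 8.40% to 10.9% at 24 h and from 12.0% to 15.9% at 6 h. Neither class overlapped between the times. These shares carry each library's trend with GC content and exon length. With that trend removed, the median log2 fold change of H3 genes at 24 h against 6 h was 0.34 in T3 libraries and 0.72 in vehicle libraries, beside 0.53 and 0.71 for H1 genes. These medians include HIST1H1A, HIST1H3C and HIST1H3E, which passed the filter through other groups and had to differ. They also weigh each gene alike, unlike the shares, so they cannot decide whether H3 fell relative to H1 after the correction.

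At 24 h, histone genes were lower in the libraries labelled T3 in every class. Of the 55 tested, 30 fell and none rose by edgeR's quasi-likelihood test (Benjamini-Hochberg adjusted p under 0.05), 54.5% of them, against a background of 7.76% of all genes lower and 5.58% higher, 13.3% in all. The 30 were 3 of 5 H1, 6 of 12 H2A, 12 of 17 H2B, 4 of 9 H3 and 5 of 12 H4 genes, and the class medians of the log2 fold change were -0.64, -0.66, -0.70, -0.56 and -0.61, against -0.01 for all genes tested. Since the libraries of this comparison, by KLF9 and HR, go against their labels, the direction holds for the labels only. After correction for GC content and exon length, 8 of the 30 kept their call, none of them an H1 gene, and the class medians were -0.20 for H1, -0.23 for H2A, -0.52 for H2B, -0.52 for H3 and -0.19 for H4. Fold changes are given on the log2 scale throughout, unless written as N-fold.

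Among linker histone genes, HIST1H1E had 258 and 251 CPM in the libraries labelled T3 against 484 and 595 CPM in those labelled vehicle at 24 h. The groups did not overlap, and the log2 fold change was -1.08 (SE 0.13, edgeR adjusted p = 0.000203). HIST1H1B, with 127 and 110 CPM against 230 and 143 CPM, also fell, by 0.64 on the log2 scale (SE 0.18, edgeR adjusted p = 0.0346). HIST1H1C had 333 and 338 CPM against 520 and 317 CPM, so that its groups overlapped and its log2 fold change of -0.31 missed the threshold (edgeR adjusted p = 0.273). With the GC and length trend removed, HIST1H1E stood at -0.62 (edgeR adjusted p = 0.0905) and HIST1H1B at -0.15 (edgeR adjusted p = 0.607), and both lost their call.

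Among H2A genes, HIST1H2AG fell to 55.7 and 51.0 CPM in the libraries labelled T3, against 94.8 and 99.0 CPM in those labelled vehicle, which is -0.86 on the log2 scale (SE 0.12, edgeR adjusted p = 0.000653). HIST1H2AE fell by 0.68 on the log2 scale (edgeR adjusted p = 0.00262), while HIST1H2AC missed the threshold at -0.31. HIST1H2AK had the lowest value of the class, -1.78 (SE 0.30, edgeR adjusted p = 0.0017), on 21 and 16 counts against 43 and 51, and shares its reads with HIST1H2BN as described. With the GC and length trend removed, HIST1H2AG kept its call at -0.89, while HIST1H2AE at -0.33 and HIST1H2AK at -1.16 lost theirs.

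H2B was the class with the largest share of genes called. HIST1H2BK, the gene whose promoter is shown above with the octamer near its start, had 49.9 and 67.7 CPM in the libraries labelled T3 against 113 and 124 CPM in those labelled vehicle (log2 fold change -1.01, SE 0.14, edgeR adjusted p = 0.000696). HIST1H2BC had 82.8 and 90.9 CPM against 133 and 151 CPM (-0.71, edgeR adjusted p = 0.00182). With the GC and length trend removed, HIST1H2BK stood at -0.44 (edgeR adjusted p = 0.439) and lost its call, while HIST1H2BC kept its call at -0.71. HIST1H2BD, at 142 and 149.5 CPM against 182 and 162 CPM, missed the threshold at -0.24.

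Of the H3 genes, HIST1H3I fell to 35.7 and 31.1 CPM in the libraries labelled T3, against 72.2 and 81.9 CPM in those labelled vehicle (-1.21, SE 0.16, edgeR adjusted p = 0.000473). HIST1H3F fell to 45.7 and 45.4 CPM, against 109.6 and 93.2 CPM (-1.15, SE 0.14, edgeR adjusted p = 0.000278). Of the H4 genes, HIST1H4E had 119 and 104 CPM against 245 and 149 CPM (-0.81, edgeR adjusted p = 0.00879) and HIST1H4D had 33.7 and 36.2 CPM against 72.0 and 59.0 CPM (-0.90, edgeR adjusted p = 0.0017). With the GC and length trend removed, HIST1H3F and HIST1H4E kept their calls, while HIST1H3I and HIST1H4D lost theirs.

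The vehicle libraries at 24 h differed from each other more than those of any other group did over these genes, and in either direction. The SD over the 55 genes of the log2 ratio of replicate 2 to replicate 1 was 0.68 there, against 0.51 in the libraries labelled T3 at 24 h, 0.27 in T3 libraries at 6 h and 0.38 in vehicle libraries at 6 h. HIST1H4C, for example, stood at 87.9 and 125 CPM in the libraries labelled T3 and at 162 and 61.8 CPM in those labelled vehicle at 24 h. HIST1H2AJ and HIST1H4A, chosen after their values were seen, differed in opposite ways: replicate 2 over replicate 1 of vehicle at 24 h was 1.28 and -1.92 on the log2 scale. Leaving out each of the 8 libraries in turn gave 21 to 34 lower members, and 16 of the 30 kept their call in all 8 such fits, HIST1H1B and HIST1H4E not among them. Without replicate 1 of vehicle at 24 h, 24 members were called, of which HIST1H4C was higher in the libraries labelled T3 by 0.76 on the log2 scale.

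**Figure D2:**
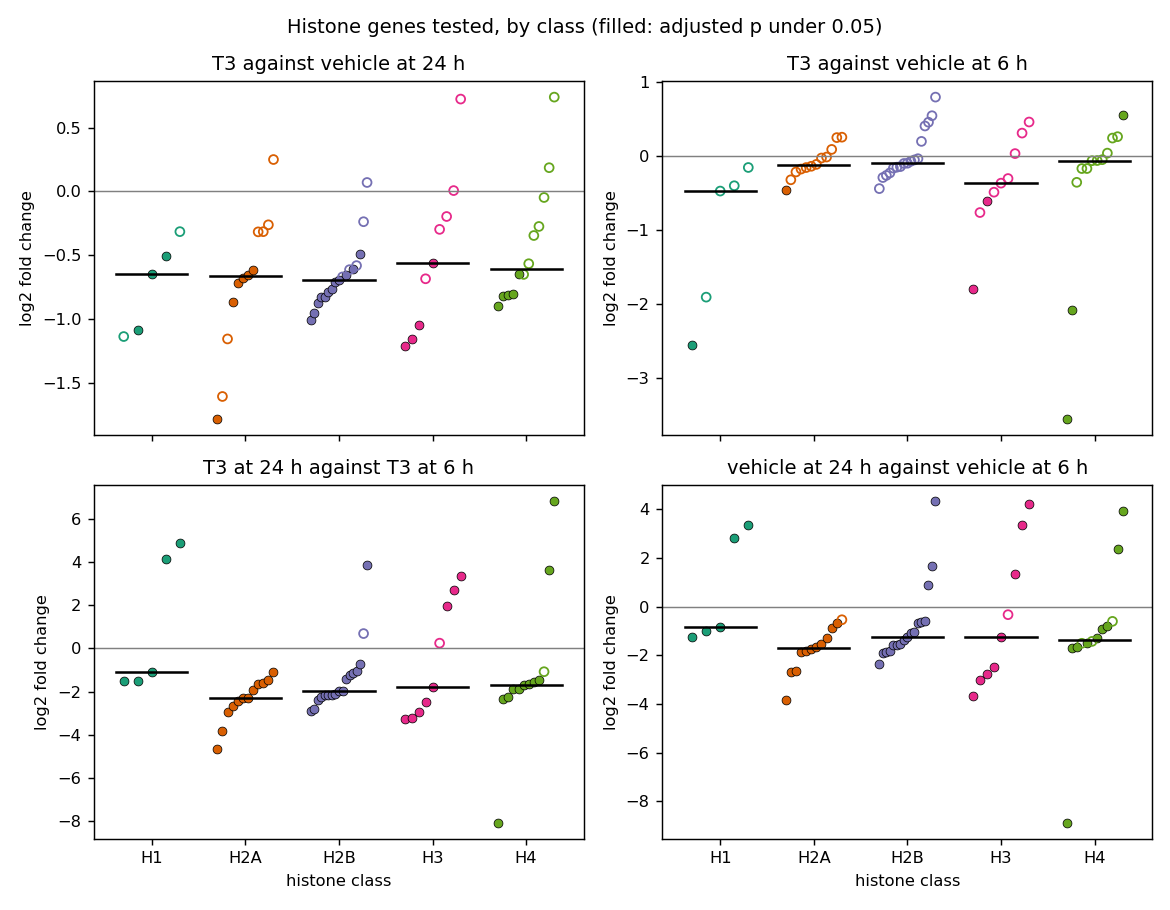
Log2 fold change (vertical axis) of each of the 55 tested histone genes by class in 4 comparisons, with filled points for an edgeR adjusted p under 0.05, open points for the rest and a bar at the class median. At 24 h the class medians of T3 against vehicle, as labelled, lie between -0.70 and -0.56, at 6 h between -0.47 and -0.06, and the comparisons between times spread widely to both sides.

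At 6 h, T3 changed few histone genes, and those mostly downward. Of the 55 tested, 6 were lower and 1 higher, 10.9% and 1.82%, against a background of 3.86% of all genes lower and 3.78% higher, 7.64% in all. HIST1H1D, a linker histone gene, had 4.69 and 3.61 CPM in T3 libraries against 24.3 and 22.8 CPM in vehicle libraries, which is -2.55 on the log2 scale (SE 0.30, edgeR adjusted p = 0.000113). HIST1H1E, a far more abundant H1 gene, had 738 and 700.0 CPM in T3 libraries against 942 and 959 CPM in vehicle libraries, without overlap, and missed the threshold at -0.40 (edgeR adjusted p = 0.0556).

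HIST1H3I fell to 8.29 and 8.82 CPM in T3 libraries, against 29.7 and 30.2 CPM in vehicle libraries (-1.80, SE 0.22, edgeR adjusted p = 0.000198). HIST1H4L, the next gene along the chromosome, fell to 1.44 and 3.21 CPM, against 9.31 and 12.6 CPM (-2.08, SE 0.42, edgeR adjusted p = 0.00731). HIST1H4F had 0 and 2 counts in T3 libraries against 12 and 7 counts in vehicle libraries, and its CPM was 12.8-fold higher in vehicle libraries, with an exact 95% counting interval of 3.08 to 113 (edgeR adjusted p = 0.011). HIST1H4F and HIST1H4L were thus low at 6 h in both groups. Of the abundant genes, HIST1H3F fell to 157 and 154 CPM, against 263 and 210 CPM (-0.61, edgeR adjusted p = 0.0127), and HIST1H2AC to 229 and 263 CPM, against 352 and 324 CPM (-0.46, edgeR adjusted p = 0.0488). With the GC and length trend removed, HIST1H3F stood at -0.21 (edgeR adjusted p = 0.441) and HIST1H4L at -1.67 (edgeR adjusted p = 0.137), and both lost their call.

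The gene that rose with T3 at 6 h was HIST1H4D, at 156 and 171 CPM in T3 libraries against 121 and 101 CPM in vehicle libraries (0.56, SE 0.14, edgeR adjusted p = 0.0281). No H2B gene passed the threshold at 6 h, and 12 of 17 had a log2 fold change below 0. HIST1H1D and HIST1H3I kept their calls in all 8 leave-outs and in all 16 alternative settings. HIST1H4D and HIST1H2AC lost theirs without any 1 of the 4 libraries at 6 h, HIST1H3F without any 1 of them except replicate 2 of vehicle, HIST1H4F likewise, and HIST1H4L without any 1 except replicate 2 of T3. With only the 6 h libraries in the fit, 14 members were lower and 2 higher.

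Whether the response differed between the times was tested as an interaction, T3 over vehicle at 24 h less that at 6 h, in which 6 of 55 members passed, 5 lower and 1 higher, against a background of 0.992% lower and 0.849% higher of all genes, 1.84% in all. HIST1H4D, -0.90 at 24 h and 0.56 at 6 h, differed by -1.46 (SE 0.21, edgeR adjusted p = 0.00124) and kept that call in all 15 alternative settings. HIST1H1D, -0.51 at 24 h and -2.55 at 6 h, differed by 2.05 (SE 0.35, edgeR adjusted p = 0.00489). HIST1H2AG, -0.86 at 24 h and -0.01 at 6 h, differed by -0.85 (edgeR adjusted p = 0.0126), and HIST1H2BK by -0.84 (edgeR adjusted p = 0.035). HIST1H2AK and HIST1H2BM differed by -2.03 and -1.59. The other 5 calls were less stable. Without replicate 2 of T3 at 6 h all 5 were lost, with an edgeR adjusted p of 0.121 for HIST1H1D and 0.0511 for HIST1H2AK. HIST1H2AG was also lost without replicate 1 of T3 at 6 h, and HIST1H2BK and HIST1H2BM were each lost in 5 of the 8 leave-outs and in 8 of the 15 settings in all. All of these differences take the 24 h labels as given.

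Between the times, most tested histone genes fell as counted and a small set rose. The balance between falls and rises depended on whether the trend with GC content and gene length was removed. Of those that rose, HIST1H1A, HIST1H2BB, HIST1H3C, HIST1H3E and HIST1H4F had fewer than 10 counts in a 6 h group. They had to differ through the filter, as HIST1H4I did among those that fell, and the counts below include them. In the libraries labelled T3, 44 of 55 were lower at 24 h than at 6 h and 8 higher, against a background of 35.2% lower and 35.1% higher of all genes, 70.4% in all. In those labelled vehicle, 40 were lower and 10 higher, against 32.6% and 31.9%, 64.5% in all. After correction for GC content and exon length, 25 were lower and 15 higher in T3 libraries, and 19 lower and 20 higher in vehicle libraries. The class medians in T3 libraries were -1.07 for H1, -2.29 for H2A, -1.99 for H2B, -1.77 for H3 and -1.68 for H4, with a median over all genes of 0.02. Those in vehicle libraries were -0.82, -1.69, -1.23, -1.23 and -1.36, with 0.03 over all genes. After the correction, the medians over the 55 genes were -0.35 in T3 libraries and 0.01 in vehicle libraries. The class medians were then 0.53 for H1, -0.06 for H2A, -0.96 for H2B, 0.34 for H3 and -0.42 for H4 in T3 libraries, and 0.71, 0.10, -0.47, 0.72 and 0.11 in vehicle libraries. The medians of H1 and H3 thus turned in both, and those of H2A and H4 in vehicle libraries. All class medians include the genes that had to differ through the filter. That of H3 turned only with HIST1H3C and HIST1H3E counted. HIST1H3B, HIST1H3G, HIST1H3H and HIST2H3D stayed below 0 under the correction in both T3 and vehicle libraries. These 2 comparisons share no library with each other, but each shares its libraries with the comparisons of T3 with vehicle.

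The 10 genes higher at 24 h in vehicle libraries were HIST1H1A, HIST1H1D, HIST1H2BB, HIST1H2BE, HIST1H2BM, HIST1H3C, HIST1H3E, HIST1H3I, HIST1H4F and HIST1H4L, and none was an H2A gene. HIST1H1D stood at 118 and 120 CPM in the libraries labelled T3 at 24 h and 203 and 136 CPM in those labelled vehicle, against the 4.69, 3.61, 24.3 and 22.8 CPM at 6 h given above. The log2 fold change was 4.88 in T3 libraries (SE 0.25, edgeR adjusted p = 2.41e-11) and 2.84 in vehicle libraries (SE 0.20, edgeR adjusted p = 1.91e-09). HIST1H4F, at 30.7 and 33.1 CPM (T3) and 57.8 and 42.9 CPM (vehicle) at 24 h, was nearly absent in T3 libraries at 6 h, at 0 and 0.401 CPM, and had 3.60 and 2.85 CPM in vehicle libraries. Its CPM was 124-fold higher at 24 h in T3 libraries, with a counting interval of 34.3 to 1031. With fewer than 10 counts in T3 libraries at 6 h, it passed the filter through other groups and, as said, had to differ.

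HIST1H3C had 9.26 and 9.79 CPM (T3) and 20.5 and 18.9 CPM (vehicle) at 24 h against 1.80 and 1.20 CPM (T3) and 1.20 and 0.815 CPM (vehicle) at 6 h. HIST1H2BB had 8.65 and 7.03 CPM (T3) and 8.10 and 6.85 CPM (vehicle) at 24 h, and at most 0.601 CPM in any library at 6 h. In vehicle libraries its CPM was 21.3-fold higher at 24 h, with a counting interval of 5.70 to 178. HIST1H3E had 6.79 to 11.4 CPM in the 24 h libraries against 0.361 to 1.20 CPM at 6 h. The groups of HIST1H3C, HIST1H2BB and HIST1H3E did not overlap between the times. Each had fewer than 10 counts in at least 1 of the 6 h groups and passed the filter through others. As said, they had to differ, so the gaps and the interval lend no weight.

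HIST1H4I, whose stem-loop is printed above, moved furthest the other way. It had 7 and 0 counts in the libraries labelled T3 and 1 and 2 counts in those labelled vehicle at 24 h, against 379 and 641 counts in T3 libraries and 500 and 308 counts in vehicle libraries at 6 h. In vehicle libraries its CPM was 519.6-fold higher at 6 h, with a counting interval of 177 to 2525. HIST1H4I passed the filter through the 6 h groups and, as said, had to differ, so the fold and the interval lend no weight. Its counts rest on its own sequence, since 99.4% of its 50-base stretches occur in no other gene's transcript. HIST1H3G was at 16.8 and 20.3 CPM (T3) and 30.8 and 24.7 CPM (vehicle) at 24 h against 161 and 187 CPM (T3) and 251 and 198 CPM (vehicle) at 6 h (-3.03 for vehicle, edgeR adjusted p = 1.28e-10). HIST3H2A and HIST2H3D fell by 3.82 and 3.68 on the log2 scale in vehicle libraries. With the GC and length trend removed, HIST3H2A stood at -2.58 and kept its call, while HIST2H3D, most of whose stretches are shared with other genes, stood at -1.04 (edgeR adjusted p = 0.0879). The abundant H1 genes HIST1H1C, HIST1H1B and HIST1H1E fell by 1.23, 1.01 and 0.82 in vehicle libraries, but stood at 0.14, 0.46 and 0.71 with the GC and length trend removed.

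**Figure D3:**
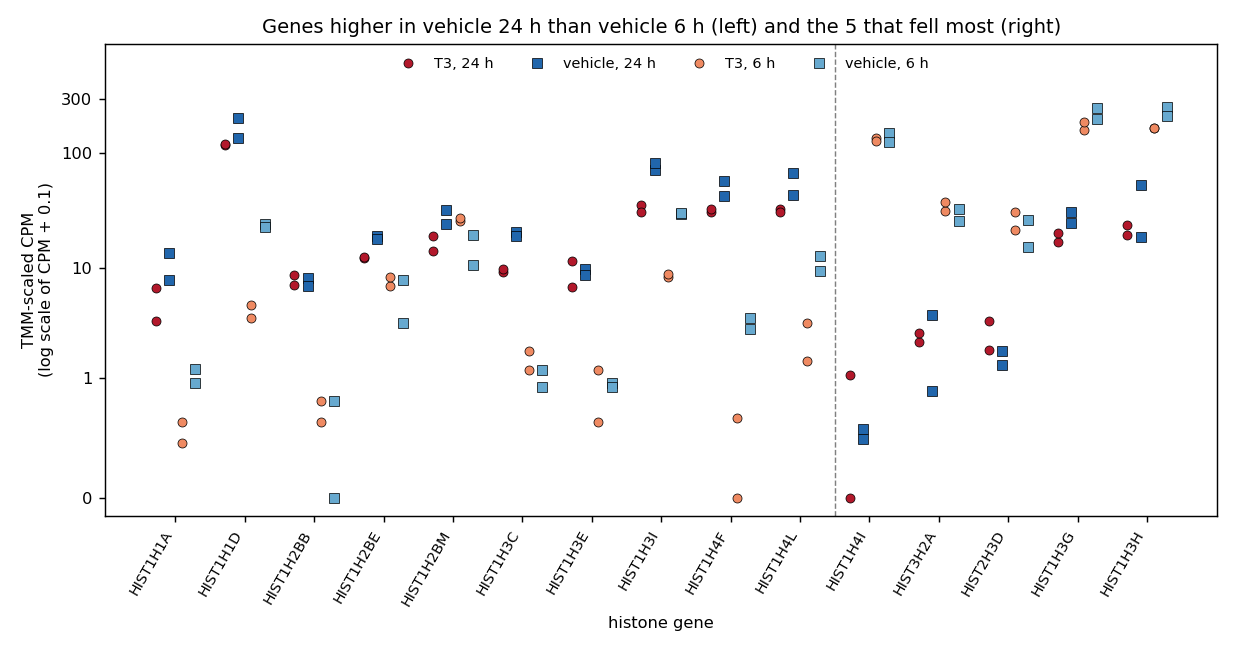
TMM-scaled CPM per library (vertical axis, log scale of CPM + 0.1) of the 10 histone genes higher in vehicle at 24 h than at 6 h and, right of the dashed line, the 5 that fell most; within a gene, from left to right, T3 at 24 h, vehicle at 24 h, T3 at 6 h and vehicle at 6 h, as labelled. HIST1H4I lies at or below 1.08 CPM in the 4 libraries at 24 h and at 126 to 150 CPM in the 4 at 6 h, and HIST1H4F shows the reverse. Both passed the filter through the groups where they are high and had to differ.

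Several of the genes higher at 24 h are neighbours among the tested genes of the HIST1 cluster. HIST1H3E (chr6:26224199-26227473), HIST1H1D (chr6:26234268-26234933) and HIST1H4F (chr6:26240426-26240737) follow each other directly, between HIST1H2AE and HIST1H3F, which both fell in vehicle libraries but stood at 0.61 and 0.72 with the GC and length trend removed. HIST1H2BB and HIST1H3C are adjacent, as are HIST1H3I and HIST1H4L. Of these, HIST1H3E, HIST1H4F, HIST1H2BB and HIST1H3C had fewer than 10 counts in a 6 h group and, as said, had to differ, so their rise lends the pattern no weight. HIST1H1A is the first tested gene of the cluster, and HIST1H2BE and HIST1H2BM stand alone. In T3 libraries HIST1H2BE missed the threshold at 0.69 and HIST1H2BM fell by 0.70, which became 0.94 with the trend removed. HIST1H4I lies between HIST1H2AG and HIST1H2BK, which fell by 1.82 and 1.53 on the log2 scale in vehicle libraries, though HIST1H2BK stood at 0.52 with the trend removed. The arrangement is a description, and no test of it was made.

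**Figure D4:**
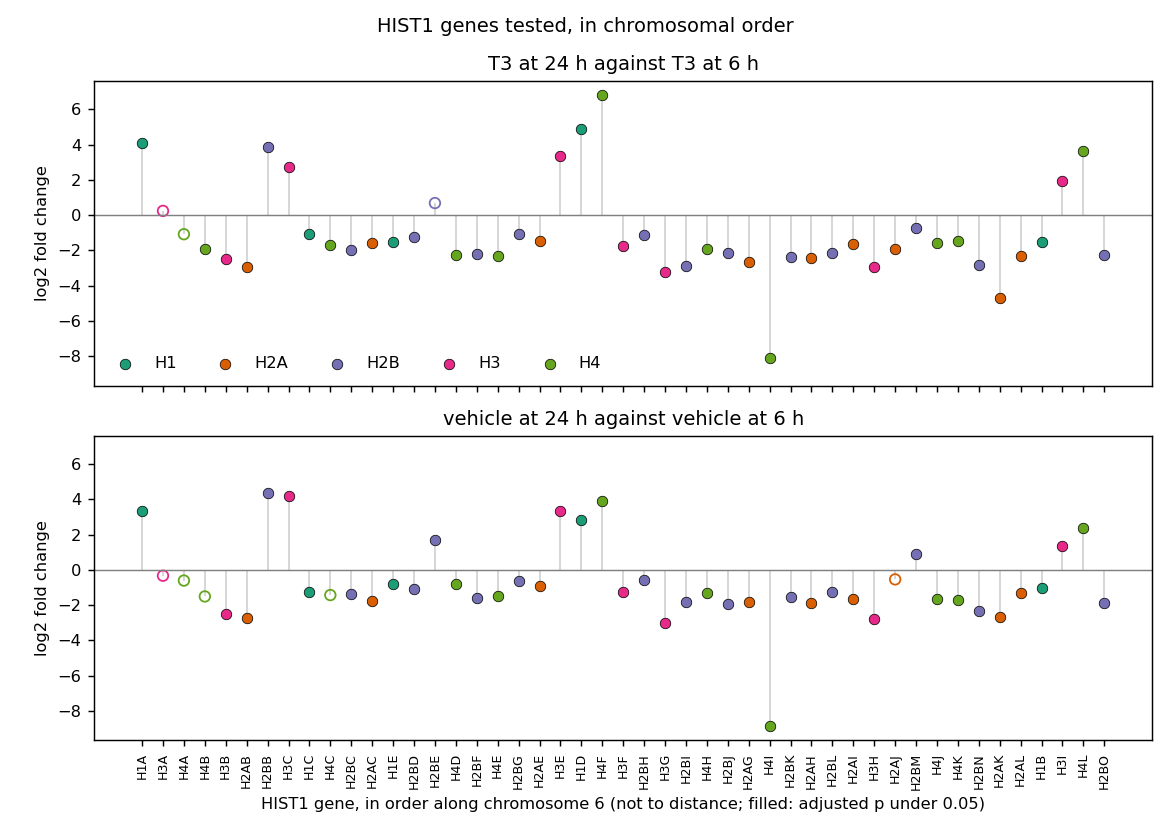
Log2 fold change (vertical axis) at 24 h against 6 h of the 47 tested HIST1 genes in their order along chromosome 6, for T3 (upper panel) and vehicle (lower panel) libraries as labelled; points are coloured by class and filled for an edgeR adjusted p under 0.05. HIST1H3E, HIST1H1D and HIST1H4F stand together above 0 amid genes that, as counted, lie below 0, and HIST1H4I is the lowest point in each panel. Of these, HIST1H3E, HIST1H4F and HIST1H4I had to differ through the filter.

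Many H2A and H2B genes lie head to head and share the stretch between their starts, and 8 such pairs with both genes tested were 219 to 331 bases apart. In 7 of the 8 pairs both genes had values below 0 as counted between the times in vehicle libraries, where 45 of the 55 genes, and all 12 H2A genes, lay below 0. With the GC and length trend removed, both genes were below 0 in 3 of the 8 pairs and both above 0 in 3. HIST1H2BJ and HIST1H2AG had log2 fold changes of -1.91 and -1.82, and HIST1H2BK and HIST1H2AH, which share the promoter printed for HIST1H2BK, had -1.53 and -1.87 as counted, but 0.52 and 0.20 with the trend removed. The other pair, HIST1H2AJ and HIST1H2BM, had -0.53, which missed the threshold, and 0.88.

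**Figure D5:**
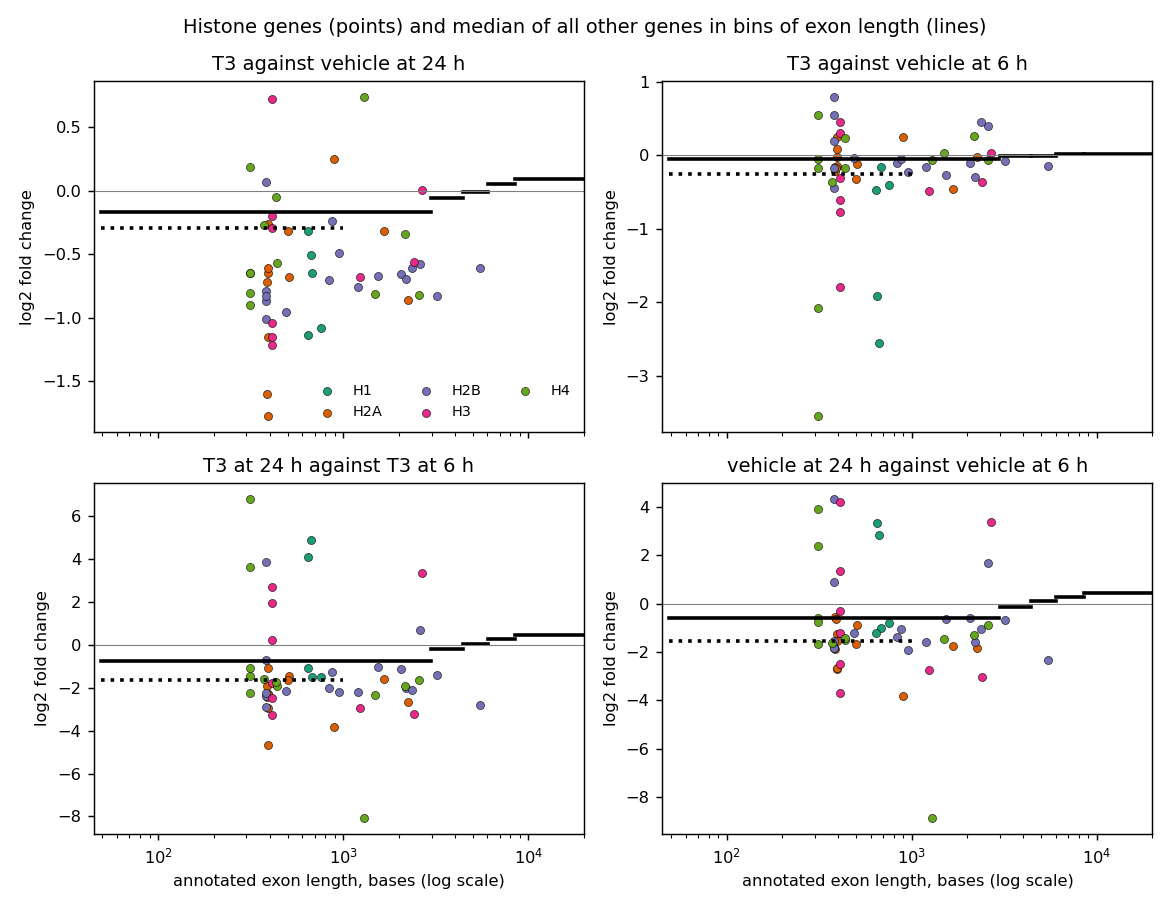
Log2 fold change (vertical axis) against annotated exon length in bases (horizontal log axis) for the 55 tested histone genes, coloured by class, in 4 comparisons as labelled. Solid lines give the median of all other annotated genes in 5 bins of exon length, and the dotted line that of the 269 other genes under 1000 bases, which is -0.29 for T3 against vehicle at 24 h, -0.26 at 6 h, -1.63 between the times for T3 and -1.54 for vehicle.

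Histone genes are short and rich in GC, and other genes that are short or rich in GC also had medians below 0 in the comparisons given here. The 55 had a median exon length of 503 bases and a median GC content of 57.2%, against 5173 bases and 48.0% for 12577 tested genes with annotation. Other genes with under 1000 bases of exon had a median log2 fold change of -1.63 between the times in T3 libraries and of -1.54 in vehicle libraries, beside histone medians of -1.77 and -1.28. For T3 against vehicle at 24 h as labelled, the histone median was -0.65, beside -0.29 for other genes with under 1000 bases of exon and -0.53 for other genes in the highest of 5 equal bins of GC content. That bin begins at 57.9% and holds 23 of the 55 histone genes. When the trend of the counts with GC content and length was removed from each library, 8 histone genes remained lower and none was higher for T3 against vehicle at 24 h, with a median of -0.44, and the 8 were among the 30. They were HIST1H2AG, HIST1H2BC, HIST1H2BH, HIST1H2BN, HIST1H3F, HIST1H4E, HIST2H2BE and HIST2H2BF. Between the times, HIST1H1D, HIST1H3I and HIST1H4L kept their call as higher in both T3 and vehicle libraries, and HIST1H2BE and HIST1H2BM in vehicle libraries. The other 5 genes higher at 24 h had to differ through the filter and are not counted here. At 6 h, 4 were lower and 1 higher of those called before, HIST1H1D and HIST1H3I among them.

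Genes of the machinery that makes these mRNAs were also compared, and no test of the list against all genes was made. Of 20 tested genes of histone 3′ end processing and transcription, 1 was lower and none higher for T3 against vehicle at 24 h, and none passed at 6 h, beside 13.3% and 7.64% of all genes called in those comparisons. SLBP had 91.1 and 116 CPM in the libraries labelled T3 against 102 and 93.7 CPM in those labelled vehicle at 24 h (0.09, edgeR adjusted p = 0.721), and NPAT had 105 and 87.2 CPM against 66.4 and 73.3 CPM (0.45, edgeR adjusted p = 0.159). The gene that fell was SRRT, which encodes a partner of the nuclear cap-binding complex (-0.73, edgeR adjusted p = 0.00257). Between the times 8 rose and 4 fell in vehicle libraries, near the 64.5% of all genes called there. The genes that rose include NPAT (1.30, edgeR adjusted p = 0.000217), SLBP (0.43, edgeR adjusted p = 0.0176), and CASP8AP2, a component of histone locus bodies (2.01, edgeR adjusted p = 2.46e-08).

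The replication-independent histones, made throughout the cell cycle, had calls in either direction, and no test of the list against all genes was made. Of 11 tested, 1 rose and 1 fell for T3 against vehicle at 24 h as labelled, beside 5.58% higher and 7.76% lower of all genes. H3F3A, encoding H3.3, rose by 1.20 (edgeR adjusted p = 0.0147) and H2AFX fell by 0.90 (edgeR adjusted p = 0.00381). H3F3B, the other H3.3 gene, had a log2 fold change of 0.12, and H2AFZ of 0.54, both short of the threshold. H1F0, the linker histone of cells that have left the cycle, had 254 and 248 CPM in the libraries labelled T3 and 257 and 293 CPM in those labelled vehicle at 24 h, against 8.65 and 9.22 CPM in T3 libraries and 18.6 and 24.9 CPM in vehicle libraries at 6 h. It fell with T3 at 6 h by 1.25 on the log2 scale (edgeR adjusted p = 0.00305), as HIST1H1D did, and was higher at 24 h by 4.80 in T3 libraries and 3.68 in vehicle libraries.

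Genes of DNA replication and S phase moved in both directions. Of 36 tested, 5 were lower and 2 higher for T3 against vehicle at 24 h, with a median of -0.15, and 3 were lower and 3 higher at 6 h. Over all genes, 13.3% were called at 24 h and 7.64% at 6 h, and no test of this list or of the mitosis and chaperone lists against that background was made. The licensing factor gene CDT1 fell at both times, by 0.82 at 24 h and 0.69 at 6 h, and LIG1, encoding a DNA ligase, fell by 0.63 at 24 h. RFC3, of the clamp loader, rose at both times, by 0.59 and 0.68. Between the times in vehicle libraries 16 fell and 13 rose, against 32.6% and 31.9% of all genes, with RRM1, a ribonucleotide reductase gene, at -2.35 and CLSPN, a checkpoint gene, at 2.83. Of 16 genes of G2 and mitosis, PLK1 and AURKB fell at 24 h, and CDK1 and CENPF rose with T3 at 6 h, by 0.68 and 0.67. Of 20 chaperone genes, CHAF1A, SSRP1 and TONSL, which handle newly made histones, fell at 24 h, by 0.61, 0.51 and 0.68.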

How the data were processed

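RNA-seq of ribosome-depleted total RNA gave 8 libraries, 2 for each of 4 groups assigned by the treatment and time in the labels. The authors deposited raw counts per gene symbol, 1 table per library. CASAVA 1.7, STAR 2.7, HTSeq, DESeq2 and the build hg38 are listed in the submitters' processing notes, with no roles. For the annotation release, strand setting and trimming, the sources used here give nothing. Summary rows were left out of library sizes and tests, among them reads not aligned uniquely (47.6% to 67.4%).

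Counts were fitted with edgeR 4.0.16 in R 4.3.3: TMM scaling, the filterByExpr filter, which kept 14611 genes, and the quasi-likelihood test with 1 coefficient per group over 8 libraries (4 residual degrees of freedom). P-values were Benjamini-Hochberg adjusted over all genes tested, with a threshold of 0.05. The biological coefficient of variation was 13.1%. The fit was tested on simulated data. Alternatives were DESeq2 1.42.0, RLE size factors, no filter, only the libraries compared, the replicate number as a block, each library left out in turn, and offsets from lowess curves (limma 3.58.1) on GC content and exon length. Fitting those curves without the histone genes was chosen after seeing the data. Positions, GC content and exon length came from GENCODE 29, and promoters from RefSeq.

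The members and lists were chosen with earlier results of these data known. The rule for naming members took the H1 genes with at least 10 counts, the 3 highest genes of each other class by mean CPM, and the 5 largest rises and falls past the threshold in each comparison, with up to 4 genes of each companion list by smallest p, plus SLBP, NPAT, H2AFZ, H3F3B and H1F0. HIST1H2AH, HIST1H2AJ, HIST1H2BJ, HIST1H2BN, HIST1H4A and some companions were chosen after their values were seen.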

Additional observations from a re-analysis of the deposited data

Results flagged for a closer look

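The T3 response differed between 24 h and 6 h, by the edgeR interaction test, for 6 histone genes, given here as the log2 response at 24 h less that at 6 h, with the 24 h libraries as labelled. HIST1H1D differed by 2.05, HIST1H4D by -1.46, HIST1H2AG by -0.85, HIST1H2BK by -0.84, HIST1H2AK by -2.03 and HIST1H2BM by -1.59. HIST1H4D kept its call when any 1 library was left out, and without replicate 2 of T3 at 6 h the other 5 lost theirs. The H4 total had a log2 ratio of T3 to vehicle of -0.58 at 24 h and 0.10 at 6 h, with both T3 libraries below both vehicle libraries at 24 h and above them at 6 h. That difference was not tested.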

How the results depend on the processing

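Counts are of histone genes called (edgeR adjusted p under 0.05), and the correction is that for GC content and length. T3 against vehicle at 24 h, with 30 lower as reported, had 8 under the correction, 8 with the replicate block added, 8 with trends fitted without histone genes, and 17 with only the libraries compared. Leave-outs gave 21 to 34 lower and 0 to 1 higher, the 1 being HIST1H4C at 0.76 without replicate 1 of vehicle, against -0.60 without replicate 2. At 6 h, with 6 lower, 3 were lower under the block with the correction and 14 with only the libraries compared, and leave-outs gave 2 to 10; of the 1 higher, there were 2 with no filter, 3 with trends fitted without histone genes, 2 with only the libraries compared, and 0 to 1 in leave-outs. T3 at 24 h against 6 h, 8 higher and 44 lower, had 15 and 25 under the correction, 25 lower with the block added, and 15 and 24 with trends fitted without histone genes. Vehicle at 24 h against 6 h, 10 higher and 40 lower, had 20 and 19 under the correction, 17 and 20 with the block added, and 20 and 19 with trends fitted without histone genes. The difference of response, 1 higher and 5 lower, had 2 and 17 with no filter, 8 lower under the replicate block, 3 lower with the block and correction, and 0 to 3 higher and 1 to 14 lower in leave-outs.

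For genes named in the report, directions that turned are given under the correction, then with the block added, then with trends fitted without histone genes. For vehicle at 24 h against 6 h they were 0.46, 0.46 and 0.51 for HIST1H1B, 0.14, 0.086 and 0.19 for HIST1H1C, 0.71, 0.51 and 0.75 for HIST1H1E, 0.61, 0.38 and 0.68 for HIST1H2AE, 0.52, 0.092 and 0.60 for HIST1H2BK, 0.72, 0.51 and 0.80 for HIST1H3F, and 1.06, 0.86 and 1.14 for HIST1H4D. For T3 they were 0.23, 0.24 and 0.23 for HIST1H1B, 0.53, 0.49 and 0.53 for HIST1H1C, 0.27, 0.10 and 0.26 for HIST1H1E, 0.34, 0.12 and 0.35 for HIST1H3F, and 0.94, 0.58 and 0.95 for HIST1H2BM. HIST1H2AE had 0.15 and 0.16 without the block. In all, 17 genes called lower in vehicle libraries and 13 in T3 libraries stood above 0 under the correction, of which 8 and 4 were called higher, among them HIST1H2BL (0.32), HIST2H2AB (0.62) and HIST2H2AC (1.55) in vehicle libraries and HIST2H2AC (1.28) in T3 libraries. The cause was not tested.

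Without TMM scaling, log2 ratios of class sums at 24 h against 6 h for T3 were -0.86 for H1, -1.74 for H2A, -1.59 for H2B, -1.90 for H3, -1.67 for H4 and -1.49 for all. For vehicle they were -1.32 for H2A and -1.17 for H2B. For T3 against vehicle at 6 h they were -0.24 for H2A, -0.23 for H2B, 0.0079 for H4 and -0.28 for all. Correlations of the replicates' deviations between groups ran from -0.04 to 0.10, so no replicate effect shared between groups was seen. With 2 libraries per group, this cannot show whether the replicate numbers pair the libraries. The replicate block alone gave 26 lower at 24 h. DESeq2 called 7 at 6 h and 26 at 24 h. With 2 libraries per group, and 1 left in a group when 1 is left out, the lone library is assumed to vary like the others.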
